A study of Mus musculus with 6 samples.

Results

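The mitochondrial ribosomal protein genes are the nuclear genes whose symbols begin with Mrpl or Mrps and a number. The rule found 76 of them among the 13490 genes of the deposited table, 47 named for the large subunit (Mrpl) and 29 for the small subunit (Mrps), and all 76 are annotated as protein-coding in RefSeq. Gene expression had been measured by RNA sequencing in inguinal white adipose tissue, a subcutaneous fat depot, of 6 male mice, wild type and of the C57BL/6J strain, at an age of 15 weeks. For 9 weeks, 3 mice drank plain dH2O (water below) and the other 3 drank sodium arsenite, a salt of inorganic arsenic, at 300 ppb. The table gives the mean of each group. Each mean below is the authors' own, and because individual mice were not analysed here it comes with no SD and no test over mice. In a piece of whole tissue, fewer cells of a type and less RNA per cell cannot be told apart.

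Mitochondria carry their own ribosome, which translates the few messages encoded by mitochondrial DNA into membrane-embedded subunits of the respiratory chain and ATP synthase. Its proteins are all encoded in the nucleus, made in the cytosol and imported. They form a large subunit, which joins amino acids, and a small subunit, which decodes the message. Many descend from bacterial ribosomal proteins and the others arose in the mitochondrial lineage. Brown and beige fat cells, which burn fuel to release heat, are rich in mitochondria and in respiratory chain.

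Symbol and structure do not fully coincide. Of 78 symbols listed for the Mrpl and Mrps series, 76 were members, and the other two stood in the table under older symbols, Mrp63 (Mrpl57) and Ict1 (Mrpl58). The products of Mrps30 and Mrps18a sit in the large subunit of the mammalian particle in spite of their names. The product of Mrps36 has since been assigned to the alpha-ketoglutarate dehydrogenase complex. Subunits are given by symbol below unless structure is named.

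Members of both subunits had lower means under arsenite. Of the 76 members, 75 had a log2 ratio of arsenite over water below 0 (69 after both groups were scaled to equal totals), and their median ratio was -0.40, a mean 24.2% lower under arsenite. Over all 13490 genes, 54.5% lay below 0 (33.8% with equal totals) and the median was -0.03. The members' ratios ran from -0.74 to 0.31, with an interquartile range from -0.50 to -0.28. Between -0.6 and -0.2 lay 56 members (27 under -0.4 and 29 above it), and 10 lay under -0.6, where 5.41% of all genes were found. Summed over the 76 members, the means were 39910 under water and 29962 under arsenite, or 0.464% and 0.388% of the total of each group. The members' lower sum was thus also a lower share.

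**Figure D1:**
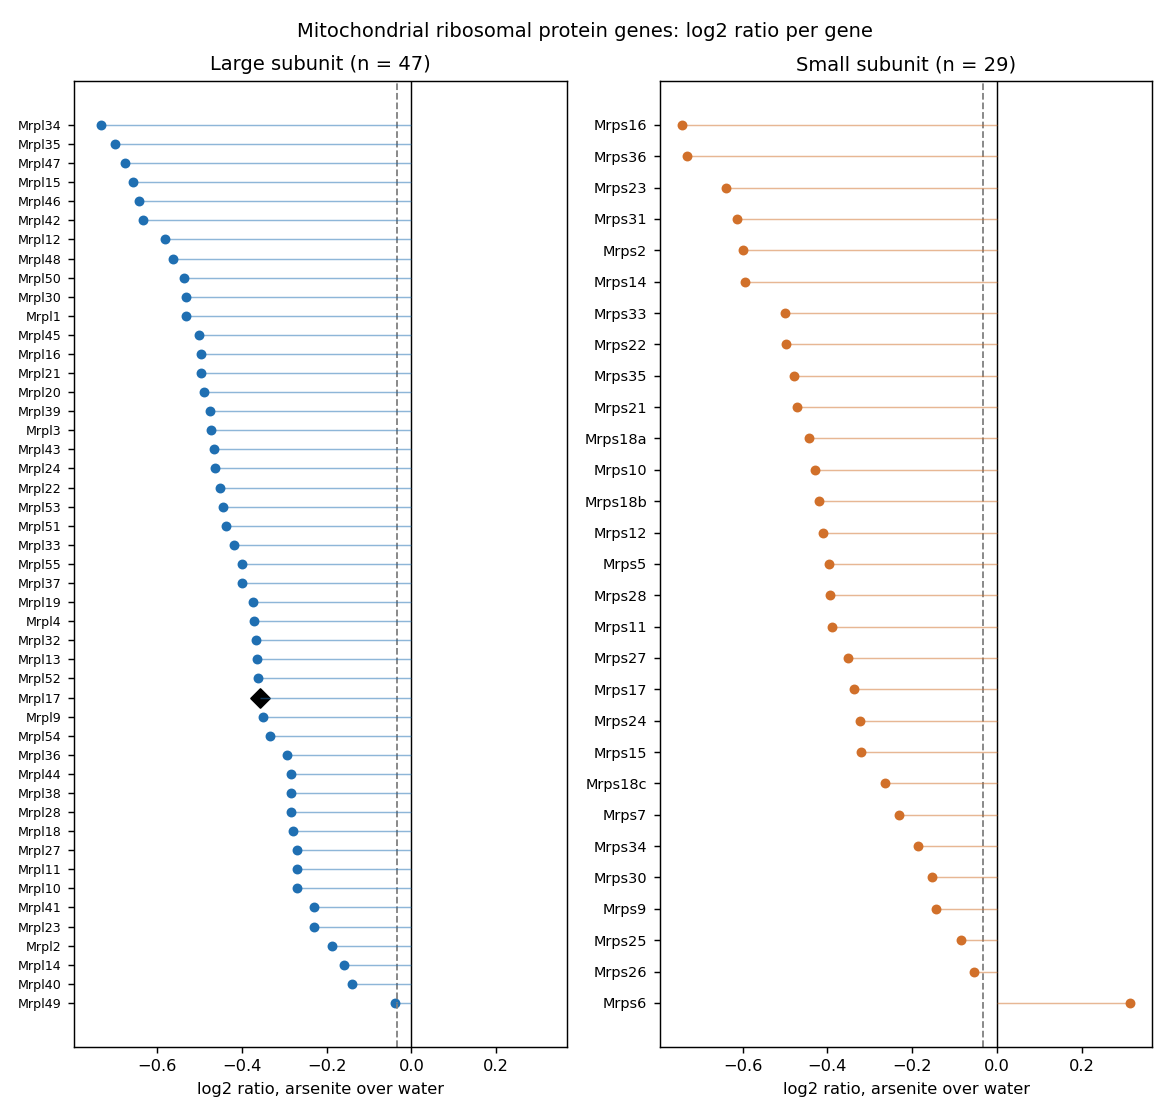
Log2 ratio of arsenite over water for each member, large subunit on the left and small subunit on the right, from the authors' deposited table. The solid line marks 0, the dashed line the median of all genes (-0.03), and the black diamond Mrpl17, the member that passed the call bound. Of the 76 points 75 lie left of 0, and Mrps6 lies at 0.31.

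A single member was called. The deposited table carries for each gene a value headed PPEE, which in EBSeq stands for the posterior probability of equal expression, and genes with a PPEE no higher than 0.05 were counted as called. By that bound 0.734% of all genes were called, 0.348% lower and 0.385% higher, against 1 of 76 members lower and 0 higher. A count of 1 is too small to set against the background. Of the members, 66 (86.8%) had a PPEE above 0.9, against 95.0% of all genes. Among 203 other genes within the interquartile ranges of the members' lengths and levels, the share was 86.7%, close to that of the members. The members' shared direction thus rests on the ratios and not on calls gene by gene.

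The called member was Mrpl17, which encodes a large-subunit protein of bacterial descent and spans 105803782 to 105811087 on chromosome 7 of GRCm38. Its authors' mean fell from 688 under water to 537 under arsenite, 21.9% lower, and the authors' deposited table lists log2 ratio -0.36 with PPEE 0.00104. Its ratio was closer to 0 than the members' median, so the call does not mark the farthest member. Mrpl17 has a deposited length of 6712 bases. With the trend of ratio with gene length over all genes taken off, it stood at -0.40, farther from 0 than the members' median of -0.25. No exon base of Mrpl17 overlaps another GENCODE gene, and none of its 50-base stretches occurs in one. The members next in PPEE were Mrps31, Mrpl48 and Mrpl50, genes of mitochondria-specific proteins, at 0.175, 0.429 and 0.514 in the authors' deposited table. Mrps31 had means of 378 and 247, Mrpl48 651 and 441, and Mrpl50 953 and 657. None of these reached the bound.

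All 47 large-subunit members lay below 0, and none but Mrpl17 was called. Mrpl34, for a small protein of bacterial descent, had the lowest ratio, with means of 451 under water and 271 under arsenite (log2 ratio -0.73 in the authors' deposited table). It was followed by Mrpl35, with 784 and 482, and Mrpl47, with 349 and 218, whose product lies near the exit of the peptide tunnel. Mrpl15, for a protein of bacterial descent, had 622 and 394, and Mrpl46, for a protein of the central protuberance, 341 and 218. These lowest members included long and short genes, from the 663 deposited bases of Mrpl34 to the 3695 of Mrpl35.

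At the other end of the large subunit the groups were close. Mrpl49, for a mitochondria-specific protein, had means of 394 under water and 384 under arsenite (log2 ratio -0.04 in the authors' deposited table). Mrpl40 had 346 and 314, and Mrpl14, whose product lies at the face towards the small subunit, 242 and 217. Mrpl2, for a core protein near the peptidyl transferase centre, had 604 and 531, and Mrpl23, for a protein at the tunnel exit, 254 and 217. Members with long-known roles lay between these ends. Mrpl12, for the stalk protein through which translation factors are recruited, had 1684 and 1125, and Mrpl11, for the base of that stalk, 516 and 428. Mrpl44, whose product carries a ribonuclease-like fold, had 266 and 218.

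Of the 29 small-subunit members, 28 lay below 0 and none was called. Mrps16, for a protein of bacterial descent whose human gene is mutated in a respiratory chain disease, had the lowest ratio of all 76 members. Its means were 489 under water and 292 under arsenite, 40.3% lower, and the authors' deposited table lists log2 ratio -0.74 with PPEE 0.961. Mrps36 had 613 and 369, Mrps23 828 and 531, and Mrps2, for a protein of bacterial descent, 488 and 322. Of the 50-base stretches of Mrps36, 17.3% occur in other genes, pseudogenes of its own among them. Mrps22, a gene with human disease mutations, had 361 and 255, and Mrps12, for a protein of the decoding centre, 240 and 181. Mrps34, needed for a stable small subunit in mice, had 417 and 366. Exons of Mrps34 overlap other genes over 77.8% of their bases.

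The 3 paralogues of a single bacterial protein sit in different subunits. Mrps18a, placed in the large subunit by structure, had means of 456 and 335. Mrps18b and Mrps18c, of the small subunit, had 487 and 364 and 436 and 363. Their log2 ratios in the authors' deposited table were -0.44, -0.42 and -0.26 in that order. Of their 50-base stretches, 0%, 14.6% and 19.2% occur in other genes.

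Small-subunit members near 0 were Mrps26, with means of 267 and 257, Mrps25, with 614 and 579, and Mrps9, with 365 and 331. Mrps30, of the large subunit by structure, had 453 and 407. Exons of Mrps25 overlap the gene Nr2c2 on the opposite strand over 69.8% of their bases.

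Mrps6 was the member above 0. It encodes a small-subunit protein of bacterial descent and spans 92058336 to 92112227 on chromosome 16. Its means were 385 under water and 479 under arsenite, 24.3% higher, and it was not called (the authors' deposited table lists log2 ratio 0.31 with PPEE 0.896). The next highest member by ratio was Mrpl49. The first exon of Mrps6 overlaps, on the same strand, the first exon of Slc5a3, the gene of an inositol transporter that takes part in osmotic balance. Of the 50-base stretches of Mrps6, 17.3% also occur in Slc5a3 or in Gm49711, an annotated gene that begins with exons of Mrps6. Slc5a3, named after its value was seen, had means of 437 and 540 (log2 ratio 0.30 in the authors' deposited table). The part of the shared exons in the value of Mrps6 was not tested.

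**Figure D2:**
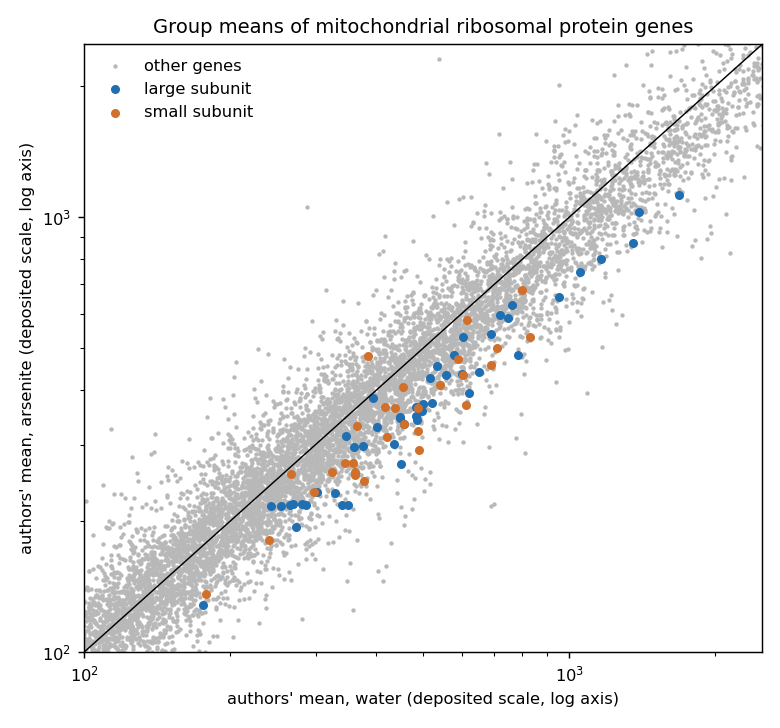
Authors' group means under water and under arsenite on log axes, for large-subunit members (blue), small-subunit members (orange) and all other genes in the window (grey). The line marks equal means. All members but Mrps6 lie below it, from Mrpl22 (175 and 128) to Mrpl12 (1684 and 1125).

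The subunits did not differ in their ratios by more than a small part of the spread within each. The large-subunit median was -0.40 (quartiles -0.50 and -0.28) and the small-subunit median -0.40 (quartiles -0.50 and -0.26), a difference of -0.0035. In a linear fit over the 76 members with log10 gene length as covariate, the large-subunit coefficient was -0.04 against an SD of 0.18 among members. It was -0.01 without Mrps6. With subunits taken from the structure (49 large, 26 small, Mrps36 left out), the medians were both -0.40 and the coefficient -0.04. No p is given, since genes are not replicates and the values per mouse behind them were not analysed.

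Descent did not separate the members' deposited ratios by much either. The 48 members with a bacterial homologue had a median of -0.40 and the 27 mitochondria-specific ones a median of -0.44. The gap between these medians was smaller than the interquartile range of either class, -0.49 to -0.29 and -0.50 to -0.26. By structure and descent together, medians were -0.40 and -0.42 in the large subunit and -0.39 and -0.48 in the small subunit, bacterial homologues first. With the trend of ratio with gene length over all genes taken off, the medians by descent were -0.23 and -0.31 in the same order. In the large subunit they were then -0.25 and -0.25. In the small subunit, with 17 and 9 members, they lay further apart, at -0.16 and -0.32.

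Gene length moved with the ratio over the whole table but not among the members. Over all genes Spearman's rho of ratio and deposited length was 0.208, and over the 76 members it was 0.02, a description across genes that share libraries. The members are short, with a median length of 1056 bases against 2795 for all genes. A smooth trend over all genes (lowess) gave a median of -0.16 at the members' lengths. Ratios with the trend taken off had a median of -0.25 over the members, with 67 of 76 below 0, and of -0.26 and -0.23 in the large and small subunit. The median of all genes was then -0.0027.

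The distance of members from other genes in the same span of lengths was larger in the longer spans. Lengths of members and other genes within a span were not matched, and the longest span is wide. Only members were left out of the other genes. These still include nuclear oxidative phosphorylation and cytosolic ribosomal protein genes, with median lengths of 679 and 702 bases. All genes listed for those 2 groups lay below 0. The 25 shortest members (412 to 899 bases) had a median ratio of -0.41, and the 676 other genes in that span one of -0.24. In the middle 25 (917 to 1354 bases) the medians were -0.42 and -0.15, and in the longest 26 (1411 to 6712 bases) -0.38 and -0.01. Among 203 other genes within the interquartile ranges of the members' lengths and levels, 80.3% lay below 0 and the median was -0.22. The 17 members inside the same limits had a median of -0.40.

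**Figure D3:**
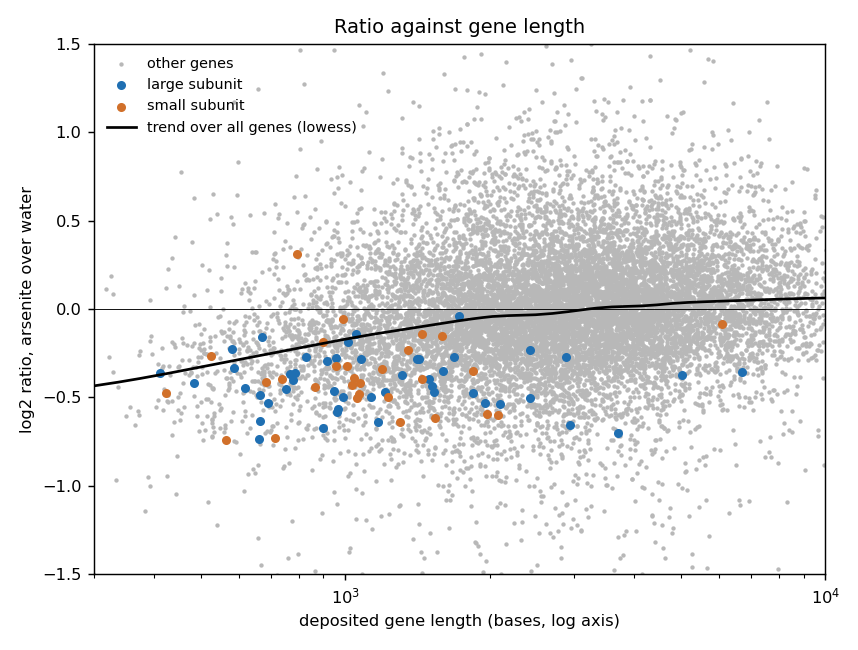
Log2 ratio of arsenite over water against deposited gene length (log axis), for large-subunit members (blue), small-subunit members (orange) and other genes (grey), with the trend over all genes as a line. The trend rises with length, while the members scatter around -0.40 among short and long genes alike.

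Levels were compared between members as means per kb of deposited gene length. Mrpl42 stood highest under water, at 2028 per kb, followed by Mrpl12 at 1749, Mrpl30 at 1681, Mrpl20 at 1581 and Mrps21 at 1425. Under arsenite these 5 kept the same order, at 1308, 1168, 1162, 1127 and 1027 per kb. The lowest was Mrpl19 at 60.3 under water and 46.5 under arsenite, below Mrps25 at 101 and 95.4 and Mrpl17 at 102 and 80.1. These 3 have long deposited lengths of 5016, 6076 and 6712 bases, which lower a value per kb, and exons of Mrpl19 overlap other genes over 36% of their bases. The subunits had alike medians per kb under water, 368 for the large and 374 for the small. Across members, Spearman's rho between the levels per kb of the groups was 0.974. The order of members was thus largely the same in both groups. Both levels are divided by the same lengths, and the water level per kb had a rho of -0.72 with length. The ratio itself had a rho of -0.18 with the water level per kb and of -0.29 with the water mean. Water is also the denominator of the ratio.

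**Figure D4:**
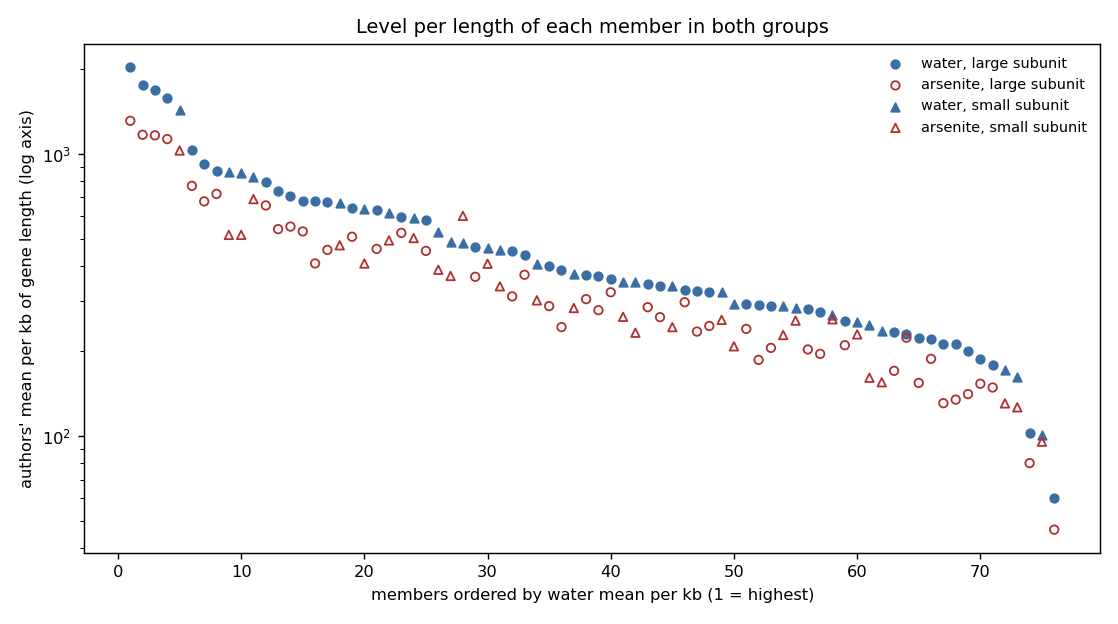
Authors' mean per kb of gene length (log axis) for each member, ordered from the highest under water, with filled marks for water, open marks for arsenite, circles for the large and triangles for the small subunit. Open marks lie below filled marks throughout except at Mrps6, and the 5 highest members stay the 5 highest.

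The starts of these genes carried sequence features that the rule did not use. RefSeq promoters of GRCm38.p6, from 250 bases before to 50 after an annotated start, were matched for 67 members. The ETS-type motif CCGGAAG, bound by factors such as GABP and read on either strand as all motifs here, was present in 24 of 67 members (35.8%), against 19.1% of the 10655 genes of the table with a promoter. The NRF1 core GCATGCGC was present in 8 members (11.9%), against 5.67% of those genes. The YY1 motif AAGATGGCG was also present in 8 members (11.9%), against 3.42%. NRF1, GABP and YY1 are regulators long tied to nuclear genes of mitochondrial proteins, and 34 members (50.7%) held at least 1 of their motifs, against 25.9% of those genes.

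Other boxes were not more common among the members than among the table's genes. The SP1 box GGGCGG was in 49.3% of members and 66.7% of the table's genes, and the E-box CACGTG in 7.46% and 11.6%. No motif searched contains another. Over all 32851 promoters of that length, shares were 8.86% for ETS, 2.71% for NRF1, 1.40% for YY1, 35.7% for SP1 and 7.15% for the E-box. Median G and C content was 58.3% in member promoters and 60.3% in those of the table. Members with 1 or more of the ETS, NRF1 and YY1 motifs had a median ratio of -0.43 and the 33 without had -0.40. The motifs differed in direction. Medians with and without the motif were -0.44 and -0.39 for ETS, -0.39 and -0.43 for NRF1, and -0.39 and -0.42 for YY1. A match describes letters and does not show a bound factor.

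Windows of 100 bases before the start are shown for the called member, for a member with several NRF1 cores, for members with an ETS motif near the lowest and near the highest ratios, and for the member above 0. ETS, NRF1 and YY1 motifs are in capitals.
Mrpl17, chr7:105811088-105811187, minus strand: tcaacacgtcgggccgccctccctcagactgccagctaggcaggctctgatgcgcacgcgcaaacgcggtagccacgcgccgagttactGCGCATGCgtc
Mrpl32, chr13:14613038-14613137, minus strand: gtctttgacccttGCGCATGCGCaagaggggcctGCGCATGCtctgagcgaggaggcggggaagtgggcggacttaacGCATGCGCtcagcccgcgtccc
Mrpl34, chr8:71464826-71464925, plus strand: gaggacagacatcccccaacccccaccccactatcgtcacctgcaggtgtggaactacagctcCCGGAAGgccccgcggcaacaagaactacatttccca
Mrps26, chr2:130563657-130563756, plus strand: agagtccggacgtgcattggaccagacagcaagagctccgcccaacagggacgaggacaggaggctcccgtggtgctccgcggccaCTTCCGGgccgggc
Mrps6, chr16:92058236-92058335, plus strand: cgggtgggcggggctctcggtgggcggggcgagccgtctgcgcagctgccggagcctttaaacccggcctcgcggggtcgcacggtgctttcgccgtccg
The window of Mrpl17 held an NRF1 core close to the start and that of Mrpl32 several such cores. Mrpl34 and Mrps26 each held an ETS motif, although their ratios were -0.73 and -0.06 in the authors' deposited table. The window of Mrps6 held none of the 3 motifs. Mrpl32, for a large-subunit protein of bacterial descent, had means of 448 and 348.

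A pair of members shares a start region across the subunits. Mrpl46 ends at base 78783089 of chromosome 7 and Mrps11, for a small-subunit protein of bacterial descent, begins at 78783131, and both are read away from the 41 bases between them.
Mrpl46 to Mrps11, chr7:78783090-78783130, plus strand: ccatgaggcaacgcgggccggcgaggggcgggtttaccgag
The stretch was 73.2% G and C, held 6 CG pairs and none of the 3 motifs. Both genes lay below 0, with log2 ratios in the authors' deposited table of -0.64 for Mrpl46 and -0.39 for Mrps11, whose means were 178 and 136. Exons of GENCODE isoforms of the pair overlap on opposite strands, over 12.2% of the bases of Mrpl46. Whether reads were assigned by strand is not given in the sources used here. The 76 members were spread over 17 chromosomes, with at most 10 on any of them.

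Genes that work with the mitochondrial ribosome lay low as well, and none of those listed was called. The 6 subunit genes listed under other symbols, Ict1 included and Mrp63 not, all lay below 0 (median -0.34). Among them Chchd1 had means of 406 and 267, Ptcd3, a small-subunit protein that binds RNA, 1038 and 698, Aurkaip1 737 and 631, and Dap3, a GTP-binding protein of the small subunit, 556 and 500. Ict1, which releases stalled ribosomes, had 302 and 233, and Mrp63, named after its value was seen, had 240 and 197. Of 18 genes listed for mitochondrial translation, factors and genes that act alongside them, 16 lay below 0 (median -0.42). Taco1, an activator of translation of a cytochrome oxidase message, had 287 and 179, Guf1, an elongation factor, 447 and 287, and Tufm, the elongation factor that delivers tRNAs, 801 and 590. Above 0 lay Mtif3, an initiation factor, with 340 and 354, and Mtfmt, which formylates the initiator tRNA, with 118 and 152. Lrpprc, which stabilises mitochondrial messages, had 824 and 564.

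Assembly genes were closer to 0 and more mixed. Of 26 genes for assembly and ribosomal RNA modification, 21 lay below 0 and the median was -0.21. Fastkd2, an RNA-binding assembly factor, had means of 345 and 191, and Rmnd1 382 and 231. Rpusd3, a pseudouridine synthase, had 61.2 and 67.9, and Ddx28, a helicase of large-subunit assembly, 115 and 129. Tfb1m, which methylates the small ribosomal RNA, had 57.1 and 49.0.

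Lists around the ribosome differed in their medians, as a description without a test. Nuclear oxidative phosphorylation subunits had a median of -0.57 over 75 genes, all below 0. Apart from the Sdh proteins, they have partners that this ribosome makes. Cytosolic ribosomal proteins had a median of -0.24 over 80 genes, all below 0 and 8 called lower, where 0.348% of all genes were. With the length trend taken off the medians of these lists became -0.32 and 0.0014, beside -0.25 for the members. With equal totals they were -0.41 and -0.08. The lowest and highest oxidative phosphorylation genes were Uqcr10 (2100 and 1015) and Cox7b (3555 and 2035), and Atp5g1 (438 and 423) and Atp5j (1985 and 1767). At the ends of the cytosolic list, Rpl36 had 1373 and 956, Rpl11 3962 and 2869, Rpl28 1605 and 1513, and Rplp0 4425 and 4202. The cytosolic genes that were called fell under arsenite by less than Mrps16 or Mrpl34: Rpl27 from 1493 to 1134, Rps14 from 3139 to 2405, Rpl19 from 3106 to 2447 and Rps26 from 1267 to 1035, with Rps6 (4731 to 3945), Rpl6 (4160 to 3555), Rps10 (1645 to 1410) and Rpl29 (1560 to 1340). RNAs encoded by mitochondrial DNA, the messages this ribosome translates, are not analysed here.

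**Figure D5:**
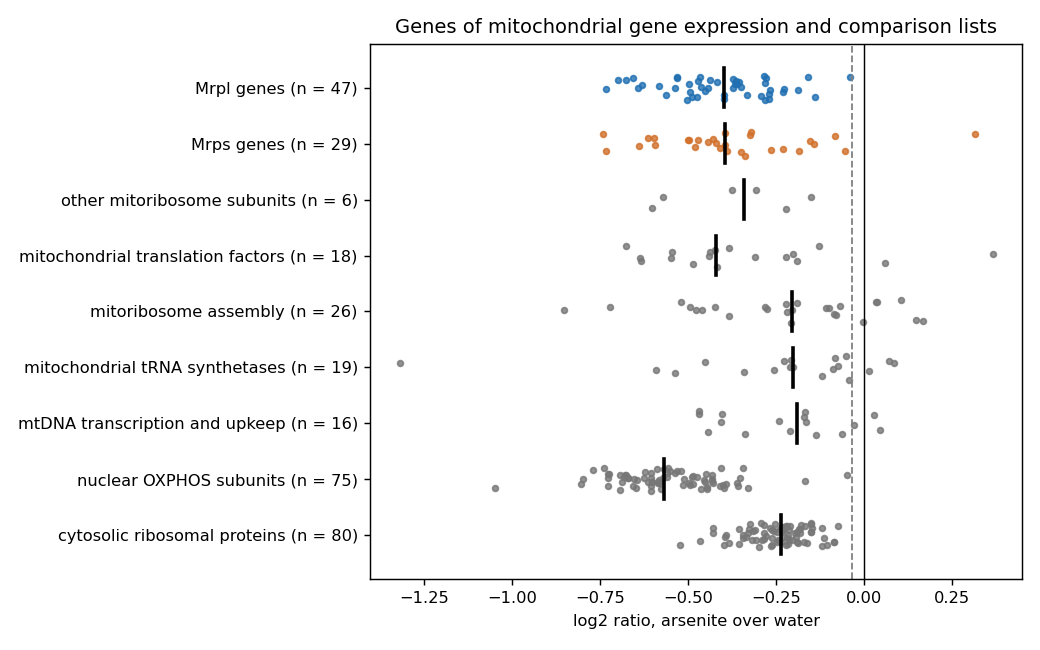
Log2 ratio of arsenite over water for the members and for companion lists, 1 point per gene, with the median of each list as a black bar, 0 as a solid line and the median of all genes as a dashed line. The Mrpl and Mrps genes (median -0.40 each) lie between the nuclear oxidative phosphorylation subunits (-0.57) and the cytosolic ribosomal proteins (-0.24).

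Regulators named for mitochondrial biogenesis were split, with no calls, and their link to the members was not tested. Ppargc1a, the coactivator of mitochondrial biogenesis, had means of 1035 and 610, and its partner receptor genes Esrra and Esrrg 1184 and 727 and 135 and 71.6. Gabpa, the DNA-binding subunit of GABP, had 780 and 582. Nrf1 had 98.5 and 101, and Yy1 373 and 425. The highest ratios were those of Pprc1, a relative of Ppargc1a, with 110.3 and 143, and Gabpb1, the partner of Gabpa, with 89.5 and 105. Of the 10 listed regulators 5 lay below 0.

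Mean levels of markers of other cells and of mitochondrial content differed between the groups as well, mostly without calls. By the PPEE bound 1 lymph node marker was called lower, and no marker of the other lists below was called. All 8 mitochondrial sentinel genes lay below 0 (median -0.43), among them Cs, citrate synthase, with means of 8056 and 5963. The lowest were Hspa9, with 10532 and 7185, and Hspd1, with 4959 and 3457, both chaperones, and the highest the channel genes Vdac2, with 2780 and 2168, and Vdac1, with 3705 and 3051. All 8 brown and beige adipocyte markers lay below 0 (median -1.19), and their summed means were 56413 under water and 22897 under arsenite, with Ucp1 at 37406 and 15854. All 10 skeletal muscle markers lay below 0 (median -0.43, summed means 262011 and 199272), and the least abundant of them, Actn3, had means of 11093 and 10327. Of 10 general adipocyte markers 7 lay above 0 (median 0.24, summed means 347968 and 359984), and the fat cell genes Adipoq (17520 and 20333) and Plin1 (6184 and 7389) were abundant in both groups. All 6 endothelial markers lay above 0 (median 0.76, summed means 2319 and 4101). Of the 5 macrophage markers measured 4 lay below 0 (median -0.09), and of the 5 lymph node markers measured all did, at low summed means of 164 and 43.2 with Ccl21a listed at 0 under arsenite. The part of these cell types in the members' ratios was not tested.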

How the data were processed

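RNA sequencing of inguinal white adipose tissue from 6 mice was analysed from 1 table of group means, 3 mice per group, per the labels. Per the labels' protocols, reads were aligned to GRCm38 with 20 M mapped reads for every sample. No other measure of depth is known. Tools listed in the submitters' processing notes are RSEM, HISAT and Bowtie2, with no role or version. The authors deposited a mean signal per group, on a count-like scale whose normalization between libraries is not given in the sources used here (sums 8608581 for water and 7716846 for arsenite). A deposited log2 ratio, treatment over control per the file headers, equals the log2 ratio of the means with 0.574 added to each, to within 3.62e-08. They deposited a posterior probability headed PPEE, which is not a p-value, and a gene length. Water was taken as the control column and arsenite as the treatment column.

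From these, counts, medians and quartiles of the ratio, levels per kb and length-adjusted ratios (lowess, span 0.3, over all 13490 genes) were computed. The length step was tested on simulated data with a straight-line trend in log10 length. The trend in the deposited ratios was curved, so that test is a rough one. No test of each gene over mice could be run without values per mouse, so calls are genes with a PPEE no higher than 0.05, over the whole table. Members and lists were chosen with earlier results of these data known. Named members are the called one, the 5 lowest and 5 highest ratios per subunit, the 4 smallest PPEE, the 3 highest and the lowest water level per kb in each subunit and a set of genes chosen by role. In companion lists they are the 2 lowest and 2 highest ratios, any called gene and a set chosen by role. A gene that this rule names is not reported here. Mrpl20, Mrpl22, Mrpl32, Mrpl53 and Mrps11 were named after their values or sequences were seen. Exon overlap and shared 50-base stretches came from GENCODE M21, and promoters from RefSeq. Alternatives were quantile normalization, upper-quartile scaling, equal totals, added constants of 0.1 and 5, a minimum average of 50, length adjustment, PPEE bounds of 0.01 and 0.1 and subunits by structure. Calculations used statsmodels 0.14.6, scipy 1.17.1, pandas 2.3.3 and numpy 2.4.6 under Python 3.11.15, and plots matplotlib 3.10.9.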

Additional observations from a re-analysis of the deposited data

How the results depend on the processing

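Without values per mouse, no replicate could be left out and no left-out value exists. No paired analysis was possible because the result comes from group means with no columns per sample. The median of the 76 members was -0.40 as deposited, -0.34 with upper-quartile scaling, -0.24 with equal totals and -0.25 with length-adjusted ratios. In the same order of alternatives, the large-subunit median was -0.34, -0.24 and -0.26, and the small-subunit median -0.34, -0.24 and -0.23. Equal totals moved the median of all genes by 0.16, to 0.12, so the members' distance from it was -0.36, against -0.37 as deposited. The number of members below 0 was 75 as deposited and 69 with equal totals, where Mrpl40, Mrpl49, Mrps9, Mrps25, Mrps26 and Mrps30 joined Mrps6 above 0. It was 74 with quantile normalization, 73 with upper-quartile scaling and 67 with length-adjusted ratios. The share of all genes below 0 was 54.5% as deposited and 33.8% with equal totals. With quantile normalization, upper-quartile scaling and length-adjusted ratios that share was 50.1%, 46.5% and 50.4%. The difference between subunit medians lay between -0.03 and 0.02 under every alternative run, on either side of 0. Mrpl17 was the called member at PPEE bounds of 0.01 and 0.1 too. Alternatives chosen after seeing the data left out Mrps6, or members sharing 10% or more of their stretches, and gave medians of -0.40 each. Leaving out pseudogene rows gave no new value because all members are protein-coding. Precision cannot be stated, since the depth and spread per mouse behind each mean are unknown.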

Other observations

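Transfer RNA charging and mitochondrial DNA upkeep showed the same side of 0 as the ribosomal protein genes in most members, with smaller medians and no calls. Of 19 mitochondrial tRNA synthetase genes 16 lay below 0 (median -0.20). Cars2, the cysteine enzyme, stood apart with means of 775 under water and 311 under arsenite, and the authors' deposited table lists log2 ratio -1.32 with PPEE 0.984, and Yars2, the tyrosine enzyme, had 209 and 139. Iars2, the isoleucine enzyme, had the highest ratio, with 897 and 951. Gars and Kars of this list also serve the cytosol. Of 16 genes listed for mitochondrial DNA transcription and upkeep, RNA processing genes among them, 14 lay below 0 (median -0.19). Tfb2m, a transcription initiation factor, had 876 and 632, Tefm, an elongation factor, 202 and 146, Tfam, which packages mitochondrial DNA, 513 and 387, and Polrmt, the RNA polymerase, 211 and 187. Elac2 and Top1mt lay above 0, at 219 and 226 and at 109 and 111.

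Some members share annotated sequence with other genes. Of the 76 members, 32 share no 50-base stretch with another gene, 12 have more than 10% of their 50-base stretches in other genes, 18 have more than 10% of their exon bases under another gene and 24 have either. Mrpl53 is the extreme, with 82.0% of its stretches in another annotated transcript and 88.0% of its exon bases overlapped, at means of 456 and 335. The 52 members under both bounds all lay below 0, at a median of -0.41. Gm15760, annotated as a pseudogene of Mrps18b and named after its value was seen, was listed at means of 13.8 and 11.5.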
